A study of Mus musculus with 9 samples.

Results

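Linderae Radix, the root of Lindera aggregata, was tested as an extract in mice with colitis, and the comparison described here sets 3 mice given the extract against 3 mice with untreated colitis. The mice were chosen by their labelled group, and they make up 6 of the 9 colon libraries of the study. In the LRWE group, C57BL/6 mice received dextran sulfate sodium (DSS) and the extract at 2.0 g/kg. In the MC group, C57BL/6 mice received DSS with no extract, and modelling lasted 9 days in both groups. The NC group of 3 C57BL/6 control mice had no DSS and is given as context. Neither the age or sex of the mice, the segment of colon, nor the days on which the extract was given is stated in the sources used here. No group received the extract without DSS, so the comparison concerns the extract in an inflamed colon. Each library came from a different mouse, and n is 3 mice in each group throughout. Gene positions are those of the deposited table, whose build is not named.

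DSS is a sulfated polysaccharide that damages the colon epithelium when mice drink it, and microbes that cross the damaged lining then draw neutrophils and macrophages into the mucosa. Cytokines such as IL-6 bind receptors that carry Janus kinases (JAK), which phosphorylate STAT transcription factors, and STATs switch on their targets, among them the SOCS proteins that shut the pathway down. By its title, the study asks about inhibition of JAK/STAT signalling by the extract. RNA levels were measured, so phosphorylation of JAK and STAT proteins was not.

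The 9 libraries held 59042063 to 65042857 counts. LRWE 2 differed from the other libraries. It scored 212.2 on the first component of a principal component analysis of the 6 libraries, which took 53.3% of the variance, against 48.1 in LRWE 3 and -33.2 in LRWE 1, and -50.3, -123.6 and -53.1 in MC 1, 2 and 3. LRWE 1 therefore lay closer to MC 1 and MC 3 than to the other LRWE libraries on this axis, and MC 2 lay at the far end. LRWE 2 had the fewest genes with a count, 21218, and the lowest quality weight, 0.247, followed by MC 2 at 0.385 and LRWE 1 at 0.494. LRWE 3 had the highest weight of the 9 libraries, 2.87. Within the LRWE group, the calls of the weighted voom fit given below therefore rest mostly on that mouse. The median SD of log2 CPM (counts normalised to library size with TMM factors) over genes was 0.474 in LRWE, 0.379 in MC and 0.253 in NC. Markers of colon epithelium were present in all 9 libraries, where the 13 listed genes summed to 14283 to 21583 CPM in LRWE, 7576 to 13683 CPM in MC and 10967 to 14009 CPM in NC.

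No gene was called between LRWE and MC in edgeR's quasi-likelihood test at an adjusted p under 0.05, out of 21767 genes tested (0% called in each direction). The smallest adjusted p was 0.164, and 1755 genes shared it. At an unadjusted p under 0.05 there were 2783 genes higher in LRWE (12.8%) and 2356 lower (10.8%). In 3118 genes (14.3%) all 3 LRWE mice lay above all 3 MC mice, and in 3070 genes (14.1%) all 3 lay below. DESeq2 called 886 genes higher (5.96%) and 902 lower (6.06%) of the 14875 genes to which it gave an adjusted p. Limma-voom with a weight for each library called 1152 higher (5.29%) and 1749 lower (8.04%) of 21767. These tools shared 1381 calls, 77.2% of the DESeq2 calls and 47.6% of the voom calls, all 1381 in the same direction. Both were fitted to the same counts of the same mice, so this agreement is not a replication. Without LRWE 1, edgeR called 950 genes higher (4.13%) and 1486 lower (6.46%). Without MC 3 it called 1 gene, Mgam, an intestinal maltase-glucoamylase named here after its value was seen (log2 fold change 3.18, edgeR adjusted p = 0.00455).

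**Figure D1:**
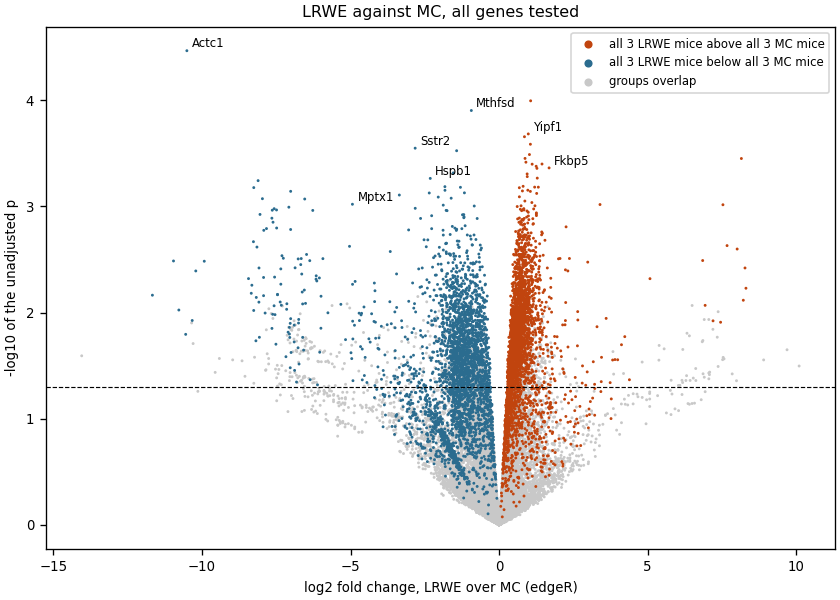
Each point is a gene, of 21767 tested, with the log2 fold change of LRWE over MC on the x axis and the negative log10 of the unadjusted edgeR p-value on the y axis. The dashed line marks an unadjusted p of 0.05 from the edgeR model. Genes whose 3 LRWE mice all lay above or all below the 3 MC mice are coloured, and Actc1 has the smallest p, although no gene passed the adjusted threshold.

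The fold changes were estimated with a median standard error (SE) of 0.413 on the log2 scale and a median 95% half-width of 0.933. The 95% interval lay within 1 on the log2 scale of no difference in 6796 genes (31.2%). Below, "higher" and "lower" describe the values of these mice, and calls by DESeq2 or voom are named as such. All fold changes are log2 fold changes of LRWE over MC ± SE from edgeR. Lists of genes are described by counts and medians, to be read against a median of -0.03 over all genes tested, a positive fold change in 48.3% of them, and the shares above. In bulk tissue, fewer cells of a type and less RNA per cell cannot be told apart.

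The 12 genes higher in LRWE with the smallest p, among those whose groups did not overlap, are given first. Sdc1 (ENSMUSG00000020592, plus strand of chromosome 12 at 8821323 to 8843715) encodes syndecan-1, a heparan sulfate proteoglycan of epithelial and plasma cells. It measured 129.6, 205 and 159 CPM in LRWE and 80.9, 70.7 and 86.4 CPM in MC, and its log2 fold change was 1.05 ± 0.18. Slc30a1, which exports zinc from cells, measured 71.5, 104 and 84.1 CPM in LRWE and 47.3, 38.2 and 42.4 CPM in MC (1.02 ± 0.18). Each LRWE mouse exceeded each MC mouse for both genes, and LRWE 2 was the highest. Fkbp5, a co-chaperone of the glucocorticoid receptor, had the largest fold change of the 12, with 114, 232 and 284 CPM in LRWE and 78.5, 49.96 and 67.9 CPM in MC (1.68 ± 0.31). Dgkq, a diacylglycerol kinase, measured 66.3, 111 and 87.0 CPM in LRWE and 35.0, 29.2 and 32.8 CPM in MC (1.45 ± 0.26). The NC mice averaged 48.5 CPM for Fkbp5 (45.1, 49.5 and 50.8) and 27.3 CPM for Dgkq (17.7, 33.5 and 30.7). They overlapped the MC mice for both genes.

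The other genes of this set were Yipf1, a Golgi membrane protein (0.98 ± 0.16), Selenos, a selenoprotein of the endoplasmic reticulum (0.87 ± 0.16), and Pex7, which imports proteins into peroxisomes (0.90 ± 0.16). Gnpnat1 makes an intermediate of UDP-N-acetylglucosamine, the sugar donor of glycoproteins (1.27 ± 0.24), and Slc35c1 carries GDP-fucose into the Golgi (0.81 ± 0.16). Hexa encodes a lysosomal hexosaminidase subunit (0.95 ± 0.18), Mrpl12 a mitochondrial ribosomal protein (1.28 ± 0.25), and Sumo2 a small protein attached to other proteins (0.94 ± 0.18). All 12 had an edgeR adjusted p of 0.164, and DESeq2 and voom called each of them higher in LRWE. The 12 were picked from the same libraries for separated groups and a small p, so these calls are no separate support. Sumo2 has processed copies in the genome whose reads the authors' counting could share.

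Among the genes lower in LRWE, Hspb1 (ENSMUSG00000004951, plus strand of chromosome 5 at 135916773 to 135918417) encodes the small heat shock protein HSP25, which is abundant in muscle. It measured 95.6, 32.9 and 54.8 CPM in LRWE and 333, 407 and 173 CPM in MC (-2.32 ± 0.44). Its processed copy Hsp25-ps1 showed a fold change of -3.36 ± 0.68, and the 2 loci may share reads. Gfap (ENSMUSG00000020932, minus strand of chromosome 11 at 102778162 to 102791738), the intermediate filament of glia, measured 35.5, 13.6 and 17.2 CPM in LRWE and 73.3, 194 and 71.2 CPM in MC, with a mean of 5.76 CPM in NC (-2.35 ± 0.47). The LRWE mice lay between the MC and NC mice for Gfap. Sstr2, a somatostatin receptor, measured 2.31, 0.739 and 0.682 CPM in LRWE and 7.60, 9.19 and 9.72 CPM in MC (-2.83 ± 0.49). Mptx1, a pentraxin of the colon mucosa, measured 0.358, 0.129 and 0.341 CPM in LRWE and 2.33, 21.7 and 1.71 CPM in MC, and averaged 542 CPM in NC (-4.94 ± 1.03). For Mptx1 the LRWE mice lay farther from NC than the MC mice did.

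Actc1, cardiac muscle actin, had 0 counts in all 3 LRWE mice and measured 3.81, 2.48 and 2.52 CPM in MC, which with a floor of 3 counts over the LRWE libraries made it at least 173.1-fold lower. It was at a mean of 3.34 CPM in NC. Tead2, a transcription factor partner of YAP, had a fold change of -1.43 ± 0.25, and Pard6g, a cell polarity protein, of -1.54 ± 0.29. Hoxb2, a homeobox gene, had -1.17 ± 0.23, Atp10a, a phospholipid flippase, -2.05 ± 0.42, and Parp3, an ADP-ribosyltransferase, -1.61 ± 0.33. Mthfsd (-0.93 ± 0.15) and Trmt13, a tRNA methyltransferase (-1.301 ± 0.26), completed the set. DESeq2 called all 12 lower, and voom called 11 of them, with Mptx1 the exception. These 12 were picked in the same way, so the calls are no separate support here either.

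**Figure D2:**
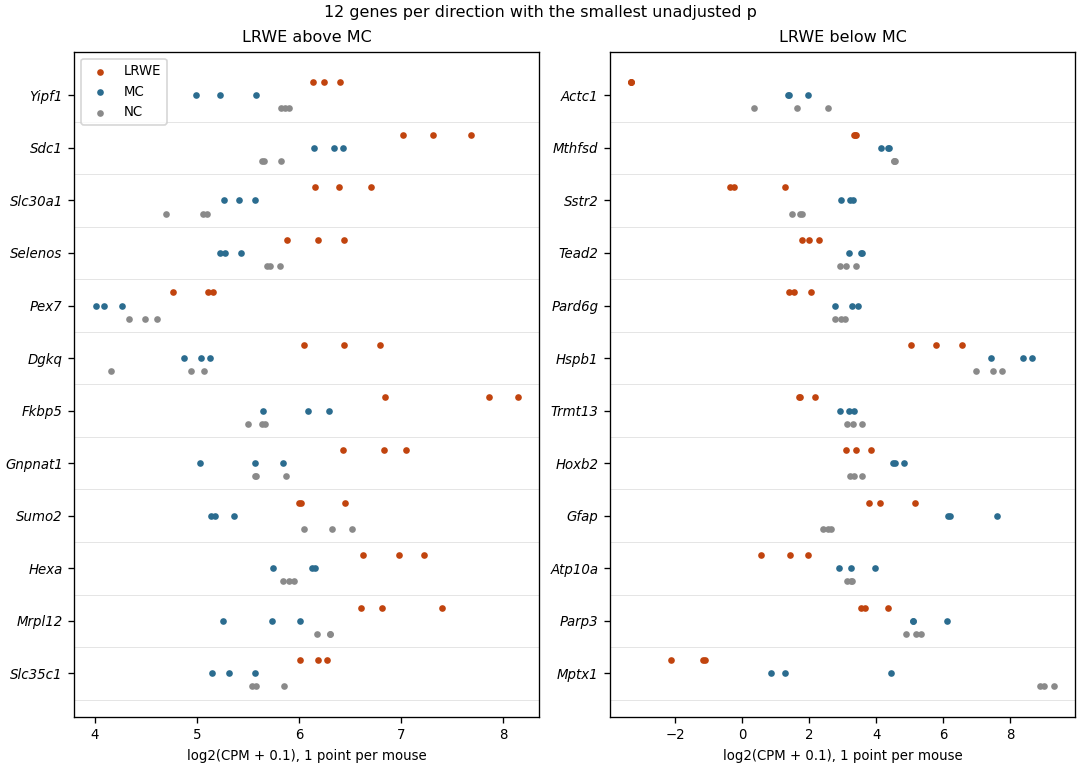
CPM of each mouse on a log2(CPM + 0.1) axis for the 12 genes per direction named by rule, with LRWE above MC and NC in each row. The LRWE points of each gene lie clear of the MC points, and the 3 LRWE points of Actc1 sit at 0 CPM.

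The JAK/STAT genes showed small differences with overlapping groups in most cases. Of 11 JAK and STAT genes, 1 lay above MC in all LRWE mice (9.09% against 14.3% of all genes), 3 lay below (27.3% against 14.1%), and 1 had an unadjusted p under 0.05. The list median was -0.36, and it ran from -0.56 to -0.05 over the alternatives. DESeq2 and voom called 0 of the 11. The broader JAK-STAT term of the deposited KEGG annotation, added after the values were seen, had 119 tested genes, of which 9.24% lay above and 16.8% below, with a median of -0.26. Jak1 (ENSMUSG00000028530, minus strand of chromosome 4 at 101009564 to 101122479), the kinase of many cytokine and interferon receptors, measured 86.7, 77.4 and 82.0 CPM in LRWE and 100.2, 142 and 87.6 CPM in MC (-0.42 ± 0.18, edgeR adjusted p = 0.206). Each LRWE value lay below each MC value, MC 2 being the highest of the 6.

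Stat3 (ENSMUSG00000004040, minus strand of chromosome 11 at 100775924 to 100830366), which IL-6 receptors activate, measured 146, 137 and 92.9 CPM in LRWE and 128, 275 and 130 CPM in MC, against a mean of 74.9 CPM in NC. The fold change was -0.50 ± 0.31 with a 95% interval of -1.20 to 0.19 (edgeR adjusted p = 0.337). MC 2 was the highest of the 6, LRWE 1 and LRWE 2 lay above both MC 1 and MC 3, and LRWE 3 was the lowest. Without MC 2 the fold change was -0.047. Stat5b differed by -0.36 ± 0.16 (adjusted p = 0.218) and Stat4, the factor of IL-12, by -1.31 ± 0.71 from about 1 CPM, both without overlap. Jak2, the kinase of many growth factor and cytokine receptors, measured 60.8, 71.8 and 76.2 CPM in LRWE and 51.6, 63.8 and 60.4 CPM in MC (0.25 ± 0.15). Stat6, the factor of IL-4 and IL-13, measured 73.5, 76.4 and 79.1 CPM in LRWE and 70.5, 69.1 and 65.2 CPM in MC (0.16 ± 0.12), and every LRWE mouse was the higher. Tyk2 differed by 0.21 ± 0.17, Stat2 by -0.31 ± 0.26, Jak3, the kinase of lymphocyte receptors, by -0.37 ± 0.33, and Stat5a by -0.41 ± 0.38, all 4 with overlapping groups.

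Feedback genes and targets of the pathway gave a list median of -0.21 over 26 genes. Of these, 4 lay above MC (15.4% against 14.3% of all genes) and 1 below (3.85% against 14.1%). The list median changed sign over the alternatives, from -0.46 to 0.16. Socs3 (ENSMUSG00000053113, minus strand of chromosome 11 at 117856905 to 117860873), the inhibitor induced by STAT3, measured 51.2, 55.0 and 19.1 CPM in LRWE and 32.0, 179.6 and 33.3 CPM in MC, with a mean of 13.6 CPM in NC (-0.97 ± 0.69, edgeR adjusted p = 0.409). The value of MC 2 set the sign: without MC 2 the fold change was 0.35. Socs1 overlapped between groups (-0.34 ± 0.45), as did the AP-1 gene Junb (-0.22 ± 0.28), while Socs5 lay lower in all LRWE mice, with 14.97, 10.4 and 16.4 CPM against 25.6, 31.1 and 20.5 CPM in MC (-0.89 ± 0.23). The survival genes Bcl2l1 (0.47 ± 0.13) and Mcl1 (0.39 ± 0.20) lay higher in all LRWE mice. DESeq2 called Socs5 lower and Bcl2l1 higher.

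**Figure D3:**
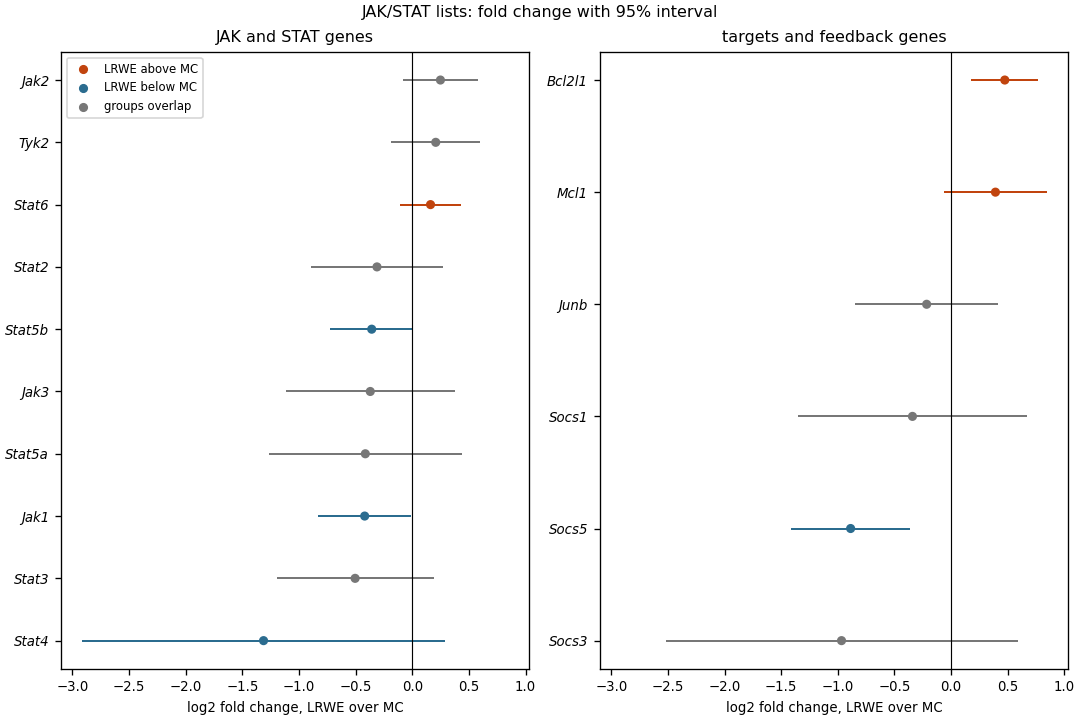
Log2 fold change of LRWE over MC with its 95% interval for the 10 JAK and STAT genes and 6 target and feedback genes described here, coloured where the 3 LRWE mice all lay above or all below the 3 MC mice. Stat4, Jak1 and Stat5b lie below 0 and Stat6 above 0 without overlap, and most intervals cross 0.

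Promoters are printed for 4 genes chosen by hand, each with a motif chosen for it. The matches among them therefore do not show how often a motif occurs. Socs3 is the STAT3 feedback gene, and Reg3b is an antimicrobial gene that STAT3 is known to induce. Gfap and Hspb1 are among the 12 genes lower in LRWE by rule, and the others are not printed. Each window runs from 250 bases before to 50 bases from the gene's start, in gene orientation, from RefSeq on GRCm38.p6: Socs3 at chr11:117969317-117969616 (minus strand), Reg3b at chr6:78370635-78370934 (plus), Gfap at chr11:102897151-102897450 (minus) and Hspb1 at chr5:135887669-135887968 (plus). Capitals mark the STAT-type motif TTCNNNGAA in the first 3 and the heat-shock-type motif GAANNTTC in Hspb1; both motifs read the same on either strand.
Socs3: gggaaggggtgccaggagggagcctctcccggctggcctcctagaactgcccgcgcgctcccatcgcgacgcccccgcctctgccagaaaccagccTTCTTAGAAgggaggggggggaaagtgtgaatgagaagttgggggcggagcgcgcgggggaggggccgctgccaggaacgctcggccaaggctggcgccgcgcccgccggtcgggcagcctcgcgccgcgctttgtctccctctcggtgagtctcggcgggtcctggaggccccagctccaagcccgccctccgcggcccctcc
Reg3b: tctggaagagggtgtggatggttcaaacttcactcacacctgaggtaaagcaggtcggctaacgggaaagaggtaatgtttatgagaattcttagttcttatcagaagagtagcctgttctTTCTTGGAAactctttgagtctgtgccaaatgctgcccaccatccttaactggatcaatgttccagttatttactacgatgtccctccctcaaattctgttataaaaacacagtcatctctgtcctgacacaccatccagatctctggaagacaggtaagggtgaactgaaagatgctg
Gfap: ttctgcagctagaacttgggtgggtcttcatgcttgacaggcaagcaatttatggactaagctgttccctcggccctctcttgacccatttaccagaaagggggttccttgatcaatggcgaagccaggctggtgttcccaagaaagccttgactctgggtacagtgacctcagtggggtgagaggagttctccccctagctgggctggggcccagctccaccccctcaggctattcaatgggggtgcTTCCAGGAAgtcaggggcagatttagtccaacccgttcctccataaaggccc
Hspb1: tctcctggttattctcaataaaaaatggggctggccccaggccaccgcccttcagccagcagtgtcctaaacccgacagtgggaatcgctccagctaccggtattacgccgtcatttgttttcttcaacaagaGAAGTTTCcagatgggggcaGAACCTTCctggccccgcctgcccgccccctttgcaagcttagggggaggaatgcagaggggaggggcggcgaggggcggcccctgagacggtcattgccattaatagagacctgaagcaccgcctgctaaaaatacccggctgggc

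The STAT-type letters began 154 bases before the Socs3 start, 129 bases before the Reg3b start and 2 bases before the Gfap start, and the heat-shock-type letters began 117 and 97 bases before the Hspb1 start. TTCNNNGAA was found in 2726 of 32851 RefSeq promoter windows (8.3%). Among genes with a window, it was found in 0 of 10 JAK and STAT genes. It was found in 2 of 18 target and feedback genes (11.1%) and 2 of 20 antimicrobial genes (10%). GAANNTTC was found in 2582 windows (7.86%). By gene, it was found in 1 of 10 JAK and STAT genes (10%). It was found in 1 of 18 target and feedback genes (5.56%) and 2 of 20 antimicrobial genes (10%). Of the genes whose promoters are printed, Reg3b lay higher in LRWE, Gfap and Hspb1 lower, and Socs3 overlapped. A match describes the letters of the window and is not a bound site.

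Receptors that signal through JAKs had a median of -0.61 over 27 tested genes. Of these, 2 lay above MC (7.41% against 14.3% of all genes) and 3 below (11.1% against 14.1%). Ifngr2, the signalling chain of the interferon gamma receptor, measured 168, 231 and 221 CPM in LRWE and 112, 100.5 and 134 CPM in MC (0.84 ± 0.21), and DESeq2 and voom called it higher. Its partner Ifngr1 also lay higher (0.34 ± 0.18). Il11ra1, the receptor of IL-11, measured 50.4, 32.9 and 28.4 CPM in LRWE and 64.0, 58.4 and 62.4 CPM in MC (-0.73 ± 0.21), and both tools called it lower.

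Inflammatory cytokines had lower fitted values in LRWE in all 14 tested members, with a median of -1.25. Of these, 3 lay below MC without overlap (21.4% against 14.1% of all genes) and 0 above. DESeq2 and voom each called 3 lower. Csf1, the growth factor of macrophages, measured 10.7, 3.23 and 4.29 CPM in LRWE and 19.4, 30.1 and 17.5 CPM in MC (-1.88 ± 0.43). Tgfb1, which restrains inflammation and drives matrix production, measured 12.1, 5.39 and 8.24 CPM in LRWE and 14.2, 26.2 and 21.3 CPM in MC (-1.26 ± 0.35). Both lay below MC in every LRWE mouse.

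The classic cytokines of colitis overlapped between groups. Tnf measured 10.6, 5.84 and 1.09 CPM in LRWE and 10.6, 15.3 and 8.01 CPM in MC, with a mean of 2.41 CPM in NC (-0.96 ± 0.68, edgeR adjusted p = 0.406). Il1b measured 8.77, 1.81 and 0 CPM in LRWE and 1.58, 8.67 and 7.74 CPM in MC (-0.77 ± 1.36). LRWE 1 lay within the range of the MC mice for Tnf and was the highest of the 6 for Il1b. LRWE 3 was the lowest of the 6 for both genes. Il6 measured 0.456, 0.813 and 0 CPM in LRWE and 0, 2.02 and 0.0664 CPM in MC, so MC 2 held nearly all of the MC counts and LRWE 1 and LRWE 2 lay above the other MC mice (-0.72 ± 2.10), and the anti-inflammatory cytokine Il10 was under 1 CPM in each mouse (0.50 ± 2.19). Il18, made by the epithelium, differed by -0.85 ± 0.56 with overlap. Il22, Ifng and Il17a had too few counts to be tested.

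Nos2, the inducible nitric oxide synthase, measured 146, 16.2 and 3.49 CPM in LRWE and 36.6, 216 and 150.5 CPM in MC, with a mean of 2.85 CPM in NC (-1.28 ± 1.09, edgeR adjusted p = 0.496). LRWE 2 and LRWE 3 lay below every MC mouse, and LRWE 1 matched MC 3. Without LRWE 1 the fold change was -3.77 (edgeR adjusted p = 0.0414), the lowest value found. Over the 23 alternatives it ran from -3.77 to -0.32, and Nos2 was called in 2 of them. Voom called Nos2 and Tnf lower. Ptgs2, the inducible cyclooxygenase, overlapped (-0.06 ± 0.68).

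Chemokines had a median of -1.17 over 26 genes, with 3 above MC (11.5% against 14.3% of all genes) and 3 below (11.5% against 14.1%). Ccl2, which recruits monocytes, was under 1 CPM in each LRWE mouse and measured 0.384, 13.4 and 1.68 CPM in MC (-4.70 ± 1.497). Ccl21a, a lymphatic chemokine, measured 30.2, 15.5 and 17.1 CPM in LRWE and 69.5, 105 and 28.1 CPM in MC (-1.69 ± 0.46), with overlap between LRWE 1 and MC 3. Reads of Ccl21a may be shared with near-identical copies. The neutrophil chemokine Cxcl1 differed by -1.67 ± 1.49, and its fold change was 1.52 without MC 2. Cx3cl1, a chemokine of epithelium and endothelium, lay higher in all LRWE mice (0.61 ± 0.25), and Ccl28, a mucosal chemokine, overlapped (-0.08 ± 0.26).

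Antimicrobial transcripts went in both directions. Reg3b (ENSMUSG00000071356, plus strand of chromosome 6 at 78347640 to 78350449), a secreted antibacterial lectin, measured 2267, 1016 and 1403 CPM in LRWE and 787, 100.2 and 612 CPM in MC, against a mean of 1.69 CPM in NC (1.65 ± 0.62, edgeR adjusted p = 0.177). Every LRWE mouse exceeded every MC mouse. Reg3g followed with 1.57 ± 0.68 and overlap, and these paralogs may share reads. Dmbt1, a mucin-like protein that binds bacteria, measured 4778, 4588 and 4038 CPM in LRWE and 2185, 2198 and 3627 CPM in MC (0.74 ± 0.28), again without overlap. Saa3, an acute-phase protein, differed by 0.66 ± 0.29.

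Neutrophil-associated members of the antimicrobial list lay the other way. Lcn2, an iron-binding protein, measured 10.4, 1.31 and 0.650 CPM in LRWE and 3.56, 49.8 and 7.08 CPM in MC (-2.29 ± 1.16), and the calprotectin subunits S100a8 (-1.77 ± 1.68) and S100a9 (-1.04 ± 1.31) were under 10 CPM in each mouse. All 3 overlapped, and MC 2 held the highest value of each. The list as a whole had a median of -0.59 over 24 genes, with 3 above (12.5% against 14.3%) and 1 below (4.17% against 14.1%). Interferon-stimulated genes had a median of 0.14 over 26 genes, with 1 above (3.85% against 14.3%) and 3 below (11.5% against 14.1%). Of these the guanylate-binding protein Gbp5 lay lower (-2.15 ± 0.74) and the RNA sensor Oas1a higher (0.74 ± 0.25), while Irf7 (0.71 ± 0.49) and Oasl2 (0.35 ± 0.48) overlapped.

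Markers of the colon epithelium lay higher in LRWE. All 13 had a positive fold change, 10 lay above MC without overlap (76.9% against 14.3% of all genes), and the median was 0.70. DESeq2 called 4 and voom 3 of them higher. Epcam, an epithelial adhesion molecule, measured 1343, 1972 and 1714 CPM in LRWE and 974, 787 and 1138 CPM in MC, with a mean of 1467 CPM in NC (0.79 ± 0.25). Cdx1, an intestinal transcription factor, measured 217, 387 and 279 CPM in LRWE and 165, 70.0 and 172 CPM in MC (1.12 ± 0.34). In both genes LRWE 2 was the highest and MC 2 the lowest of the 6. The keratin Krt8 (0.82 ± 0.31) and the galectin Lgals4 (0.63 ± 0.25) likewise lay higher without overlap. List scores, the mean log2 CPM of a list less the MC mean, were 0.61, 1.17 and 0.77 in LRWE and 0.09, -0.54 and 0.45 in MC.

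Junction genes of this epithelium lay above MC in 13 of 25 cases (52% against 14.3%) and below in 1 (4% against 14.1%). Their median was 0.50. Ocln, the tight junction protein occludin, measured 53.7, 81.9 and 73.9 CPM in LRWE and 51.4, 29.4 and 42.6 CPM in MC, against a mean of 132 CPM in NC (0.76 ± 0.26, edgeR adjusted p = 0.167). Tjp1, the scaffold ZO-1, measured 81.4, 92.0 and 91.3 CPM in LRWE and 76.7, 97.6 and 91.5 CPM in MC (-0.01 ± 0.17, 95% interval -0.39 to 0.38). Thus the groups separated for Ocln and overlapped for Tjp1. Cldn1 was at about 1 CPM or less in each of the 6 mice (-0.86 ± 1.15). Cldn15, a claudin that forms cation channels, differed by 1.64 ± 0.52, the adhesion molecule F11r by 0.68 ± 0.18, E-cadherin Cdh1 by 0.70 ± 0.26 and beta-catenin Ctnnb1 by 0.50 ± 0.20. DESeq2 and voom called Cldn15 and F11r higher.

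Mucus and goblet cell genes had 8 of 22 members above MC (36.4% against 14.3%) and 0 below, with a median of 0.45. Muc2, the gel-forming mucin of the colon, measured 2169, 2168 and 2571 CPM in LRWE and 1781, 784 and 1097 CPM in MC, with a mean of 494 CPM in NC (0.92 ± 0.29, edgeR adjusted p = 0.164). Muc3, a membrane mucin, measured 2939, 2974 and 3179 CPM in LRWE and 1660, 1575 and 2003 CPM in MC (0.80 ± 0.25). All LRWE mice exceeded all MC mice for both mucins, and DESeq2 and voom called both. Atoh1, which commits cells to the secretory lineage, differed by 1.29 ± 0.40, and Foxa3, a goblet cell factor, by 0.91 ± 0.27, both without overlap. Zg16, a lectin of the mucus layer, overlapped (0.41 ± 0.32).

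Transport genes had 11 of 26 above MC (42.3% against 14.3%) and 1 below (3.85% against 14.1%), with a median of 0.67. Slc9a2, a sodium-hydrogen exchanger, measured 338, 525 and 466 CPM in LRWE and 249, 135 and 268 CPM in MC (1.03 ± 0.29). The exception was the colonic proton pump Atp12a, which measured 3.56, 0.610 and 1.33 CPM in LRWE and 7.08, 146 and 5.38 CPM in MC and averaged 389.6 CPM in NC (-4.85 ± 1.32). MC 2 held most of the Atp12a of the 6 mice.

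Genes of crypts and of hormone cells were mixed. Crypt and stem cell genes had 2 of 19 above MC (10.5% against 14.3%) and 2 below (10.5% against 14.1%). Prom1 (0.98 ± 0.28) and Sox9 (1.13 ± 0.29), both expressed in crypts, lay higher, the WNT feedback gene Nkd1 lay lower (-0.78 ± 0.22), and Slc12a2 overlapped (0.87 ± 0.32). Of 16 enteroendocrine genes, 2 lay above (12.5% against 14.3%) and 5 below (31.25% against 14.1%). Gcg, the glucagon precursor of L cells, measured 15, 24.2 and 20.6 CPM in LRWE and 9.20, 14.9 and 9.20 CPM in MC (0.84 ± 0.26). Sst, somatostatin, measured 259.7, 62.8 and 221 CPM in LRWE and 572, 286 and 424 CPM in MC, against a mean of 41.8 CPM in NC (-1.24 ± 0.46). Sst and its receptor Sstr2 were therefore both lower in LRWE, and Scg2 (-1.22 ± 0.60) and Tac1 (-1.93 ± 0.62), which enteric neurons also express, were lower too.

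Several lists of metabolic genes lay higher, while the medians were -0.09 for fatty acid synthesis and 0.10 for cholesterol synthesis. Xenobiotic metabolism had the highest median of the 53 lists, 1.15 over 39 tested genes, with 18 above MC (46.2% against 14.3%) and 1 below. DESeq2 called 8 and voom 11 of them higher. Cyp2c55, a cytochrome P450, measured 1637, 4673 and 2768 CPM in LRWE and 1613, 343 and 1289 CPM in MC (1.48 ± 0.55). Abcb1a, the efflux pump P-glycoprotein, measured 380.1, 750.0 and 804 CPM in LRWE and 330.2, 149 and 304 CPM in MC, with a mean of 807 CPM in NC (1.303 ± 0.36). MC 2 was the lowest mouse for both genes. Ces2e, a carboxylesterase, differed by 1.15 ± 0.32. Cyp2c, Abcb1 and Ces2 genes have close paralogs whose reads may be shared.

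Targets of NRF2, the factor that induces antioxidant enzymes, had 12 of 22 above MC (54.5% against 14.3%) and 0 below, with a median of 0.72. Nfe2l2, which encodes NRF2, measured 184, 324 and 365 CPM in LRWE and 165, 95.1 and 169 CPM in MC (1.02 ± 0.29), and the peroxidase Prdx1 measured 273, 529 and 359 CPM in LRWE and 221, 207 and 234 CPM in MC (0.81 ± 0.22). Both were called higher by DESeq2 and voom. The ferritin chains Fth1 (0.72 ± 0.29) and Ftl1 (1.15 ± 0.34), which store iron, also lay higher.

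Fatty acid oxidation had 16 of 28 above MC (57.1% against 14.3%) and 0 below, with a median of 0.77. Cpt2, which moves fatty acids into the mitochondrial matrix, differed by 1.02 ± 0.29.

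Nuclear genes of the respiratory chain had positive fold changes in 30 of 30 cases. Of these, 17 lay above MC (56.7% against 14.3%) and 0 below, with a median of 0.71. Sdha, a subunit of succinate dehydrogenase, measured 310.1, 511 and 431 CPM in LRWE and 249, 202 and 255 CPM in MC (0.83 ± 0.20). Cyc1 (0.84 ± 0.22), Cox4i1 (1.03 ± 0.32) and Atp5a1 (0.74 ± 0.21), of complexes III, IV and V, also lay higher without overlap. The 13 genes encoded in mitochondrial DNA did not share this pattern: their median was -0.22, with 0 above and 0 below.

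Ribosomal protein genes were higher in 40 of 40 cases, with 28 above MC (70% against 14.3%), 0 below and a median of 0.63. Rps9 measured 567, 823 and 640.3 CPM in LRWE and 379.9, 349.8 and 428 CPM in MC, with a mean of 741 CPM in NC (0.81 ± 0.18). Rpl8 (0.84 ± 0.18), Rplp0 (0.75 ± 0.22) and Rpl4 (0.59 ± 0.21) behaved alike. DESeq2 called 17 and voom 19 of the 40 higher, and pseudogene copies of these genes may share reads. The scores were 0.24, 0.96 and 0.56 in LRWE and 0.04, -0.20 and 0.16 in MC, so LRWE 2 stood highest and LRWE 1 lay close to MC.

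**Figure D4:**
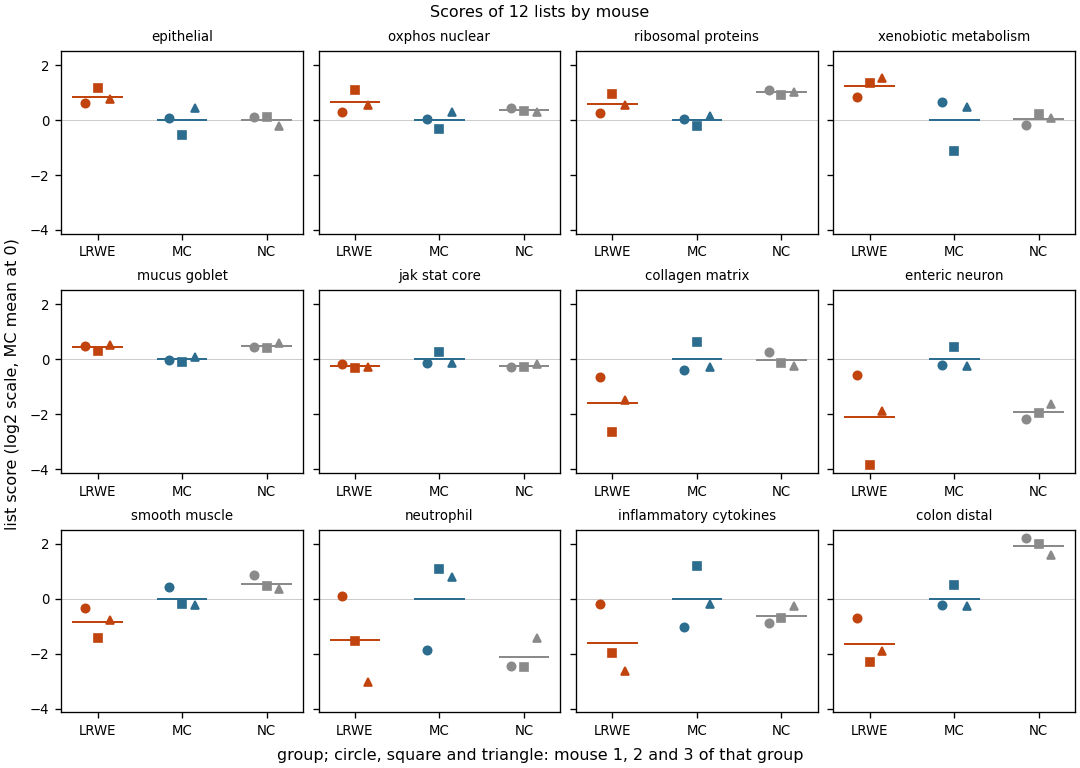
Scores of 12 gene lists, each the mean log2 CPM of the list in a mouse less the mean of the MC mice, with the line at the group mean. The 3 LRWE mice lie above the 3 MC mice for epithelial, respiratory chain, ribosomal, xenobiotic and mucus genes. They lie below them for collagen, enteric neuron, smooth muscle and distal colon genes, while the neutrophil and cytokine scores overlap. JAK/STAT core scores lie below only narrowly, at -0.157, -0.325 and -0.276 in LRWE and -0.121, 0.264 and -0.143 in MC. The respiratory chain gap is narrow too, with LRWE 1 at 0.301 and MC 3 at 0.287.

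Genes of the stroma, muscle and nerves lay lower in LRWE. Collagen and matrix genes had negative fold changes in 25 of 25 cases, with 16 below MC (64% against 14.1%), 0 above and a median of -1.52. DESeq2 called 13 and voom 17 of them lower. Col3a1 (ENSMUSG00000026043, plus strand of chromosome 1 at 45350698 to 45388866), a fibrillar collagen, measured 220.3, 90.2 and 125 CPM in LRWE and 242, 554 and 266 CPM in MC, with a mean of 526 CPM in NC (-1.29 ± 0.43). Eln, elastin, measured 32.0, 10.3 and 17.6 CPM in LRWE and 58.7, 98.5 and 48.8 CPM in MC (-1.78 ± 0.42). LRWE 2 was the lowest mouse and MC 2 the highest for both genes. Fibronectin Fn1 differed by -2.15 ± 0.66 and Col6a3 by -1.46 ± 0.39. The median of the list was -0.69 without LRWE 2 and MC 2 together.

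Proteases of the matrix and their inhibitors had 5 of 20 below MC (25% against 14.1%) and 0 above, with a median of -1.01. Timp1, an inhibitor that wounds induce, measured 2.47, 0.573 and 0.130 CPM in LRWE and 2.12, 40.4 and 4.53 CPM in MC (-3.89 ± 1.28), MC 2 standing apart from the rest. Timp2 (-1.14 ± 0.45) and Timp3 (-1.22 ± 0.48) lay lower without overlap, as did the metalloproteinase Mmp19 (-2.61 ± 0.72).

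Fibroblast markers had 3 of 20 below MC (15%, near the 14.1% of all genes), 0 above and a median of -0.79. Dcn, the matrix proteoglycan decorin, measured 96.6, 29.7 and 28.7 CPM in LRWE and 60.5, 440.0 and 142 CPM in MC (-2.05 ± 0.71), with LRWE 1 above MC 1. Pi16, a marker of adventitial fibroblasts, differed by -2.41 ± 0.67, and the tetraspanin Cd81 by -0.84 ± 0.24. Endothelial markers had 4 of 16 below (25% against 14.1%) and 0 above, with a median of -0.94. Lyve1, a receptor of lymphatic vessels, measured 21.3, 5.93 and 9.47 CPM in LRWE and 42.4, 57.7 and 24.1 CPM in MC (-1.76 ± 0.47), the tight junction gene Cldn5 differed by -0.95 ± 0.24, and Plvap overlapped (-0.74 ± 0.46).

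Smooth muscle markers had 8 of 16 below MC (50% against 14.1%), 0 above and a median of -0.80. Acta2, smooth muscle actin, measured 1233, 467 and 848 CPM in LRWE and 2033, 1350 and 1256 CPM in MC (-0.86 ± 0.36). Myh11, the smooth muscle myosin, measured 1881, 486 and 1457 CPM in LRWE and 3218, 1514 and 1558 CPM in MC (-0.72 ± 0.48) and overlapped. The muscle transcription coactivator Myocd (-1.78 ± 0.51) and the intermediate filament Synm (-1.28 ± 0.46) lay lower in all LRWE mice. Markers of interstitial cells of Cajal, the pacemakers of the gut wall, had a median of -0.88. Of the 9 markers, 3 lay below MC (33.3% against 14.1%) and 0 above. Among the 9 markers were the receptor Kit (-0.88 ± 0.29) and the factor Etv1 (-1.24 ± 0.54), whereas P2ry1 lay the other way with overlap (0.77 ± 0.31).

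Enteric neuron markers had 15 of 17 below MC (88.2% against 14.1%), 0 above and a median of -1.52, while 11 had an unadjusted p under 0.05. DESeq2 called 2 and voom 15 of them lower. Prph, the neuronal filament peripherin, measured 222, 36.1 and 84.9 CPM in LRWE and 245, 426 and 268 CPM in MC, with a mean of 88.2 CPM in NC (-1.45 ± 0.56). Vip, a neuropeptide that relaxes muscle and drives secretion, measured 101, 16.4 and 30.5 CPM in LRWE and 126, 792 and 146 CPM in MC (-2.85 ± 0.84). Neuron scores were -0.56, -3.83 and -1.87 in LRWE, -0.20, 0.44 and -0.24 in MC, and -2.16, -1.94 and -1.62 in NC. LRWE 2 thus lay below the NC mice and LRWE 1 near the MC mice. Glial markers had 6 of 12 below (50% against 14.1%) and 1 above (8.33% against 14.3%), with a median of -0.99. Besides Gfap they included L1cam (-0.52 ± 0.23) and Scn7a (-1.13 ± 0.42), and Erbb3, a receptor that epithelial cells also express, was the member above MC (0.69 ± 0.26).

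In the LRWE mice, scores of muscle, neuron and matrix lists and those of epithelium lay on opposite sides of the MC mean, with LRWE 2 at the extreme of both. The smooth muscle markers summed to 4661 to 10974 CPM in LRWE, 10364 to 18209 CPM in MC and 13314 to 19094 CPM in NC. The part that a different share of muscle wall and mucosa in the tissue pieces had in any of the differences above was not tested.

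Skeletal muscle markers had 6 of 13 below MC (46.2% against 14.1%) and 0 above, with a median of -1.59. Mb, myoglobin, had 0 counts in the LRWE mice and measured 3.69, 3.34 and 4.97 CPM in MC, which made it at least 233.3-fold lower against the floor of 3 counts. Eno3, a muscle enolase, differed by -1.22 ± 0.34, and the fast myosin Myh2 was under 1 CPM in all 6 mice. Summed levels were 56.8 to 70.7 CPM in LRWE, 75.2 to 93.3 CPM in MC and 211.0 to 297.0 CPM in NC. Their part in the other differences was not tested.

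Genes that mark the distal colon had 5 of 14 below MC (35.7% against 14.1%), 0 above and a median of -1.19. Those of the proximal colon had 2 of 16 above (12.5% against 14.3%), 3 below (18.75% against 14.1%) and a median of 0.20. Hoxb13, a homeobox gene of the distal hindgut, measured 1.79, 0 and 0.260 CPM in LRWE and 1.18, 61.2 and 9.70 CPM in MC, against a mean of 300.5 CPM in NC (-5.12 ± 1.52). Slc37a2, a sugar-phosphate transporter on the distal list, measured 1.24, 1.81 and 2.34 CPM in LRWE and 5.05, 33.0 and 6.36 CPM in MC, with a mean of 882 CPM in NC (-3.04 ± 0.69). MC 2 held the highest values of the 6 mice for both. Hoxa13 (-1.17 ± 1.05) and Wfdc2 (-0.27 ± 0.38) had overlapping groups. On the proximal list, Osr2 (1.495 ± 1.07) and Ggh (-1.33 ± 0.65) overlapped and Hoxb7 lay higher in all LRWE mice (1.69 ± 0.51). The colon segment is not stated, and its part in the other differences was not tested.

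Among immune cell lists, neutrophil markers had 0 of 15 above or below MC, a median of -1.02, and 0 members called by edgeR, DESeq2 or voom or at an unadjusted p under 0.05. Scores were 0.09, -1.54 and -3.04 in LRWE and -1.86, 1.08 and 0.79 in MC, so the lowest MC mouse lay below 2 of the 3 LRWE mice. Ly6g measured 59.3, 15.9 and 14.1 CPM in LRWE and 16.4, 234 and 55.4 CPM in MC (-1.78 ± 0.88), and the formyl peptide receptor Fpr2 was under 1 CPM in each mouse.

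Macrophage and monocyte markers had 2 of 22 below MC (9.09%, under the 14.1% of all genes), 0 above and a median of -0.65. Mrc1, the mannose receptor of resident macrophages, measured 10.6, 6.17 and 6.30 CPM in LRWE and 10.8, 19.6 and 13.3 CPM in MC (-0.92 ± 0.29), while lysozyme Lyz2 (-0.83 ± 0.46) and the Fc receptor Fcgr3 (-1.26 ± 0.43) overlapped. Dendritic cell markers had 2 of 13 below (15.4%, near the 14.1% of all genes) and 0 above. These were Zbtb46, a factor of classical dendritic cells (-1.27 ± 0.36), and the actin bundler Fscn1 (-1.09 ± 0.35), and Irf8 overlapped (0.60 ± 0.28).

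T and NK cell markers had 4 of 23 above MC (17.4%, near the 14.3% of all genes), 0 below and a median of 0.24. Gzma, a granzyme, differed by 0.90 ± 0.38, and Foxp3, the factor of regulatory T cells, by 1.96 ± 0.71 at about 1 CPM or less. B and plasma cell markers had 6 of 20 below (30% against 14.1%), 1 above (5% against 14.3%) and a median of -2.53. That median became 0.04 without LRWE 2 and MC 2 together. Cr2, the complement receptor of B cells, had 0 counts in LRWE and measured 0.184, 7.42 and 0.133 CPM in MC, at least 165.6-fold lower, with nearly all of the MC counts in MC 2. Xbp1, which secretory cells use, overlapped (0.31 ± 0.15), and Sdc1 was the member above MC.

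For the remaining lists the medians are given alone. The median was 0.05 for the cell cycle, 0.02 for the NF-kB pathway and 0.25 for the unfolded protein response. It was 0.34 for glycolysis, 0.47 for apoptosis and pyroptosis, 0.68 for colonocytes, 0.23 for tuft cells and -0.27 for immediate early genes. It was -0.39 for wound epithelium, -0.53 for MHC class II and -0.11 for ligands of the IL-6 and IL-10 families. Markers of mast cells and eosinophils had -0.60, of adipocytes 1.09, of squamous epithelium 0.38, of pancreatic acini -0.62 and of erythroid cells 0.55. Over all 53 lists, 25 had a median above 0. The medians of 17 lists took both signs over the alternatives, and these included the antimicrobial, interferon-stimulated, crypt, enteroendocrine, proximal colon and B and plasma cell lists and the mitochondrially encoded genes.

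**Figure D5:**
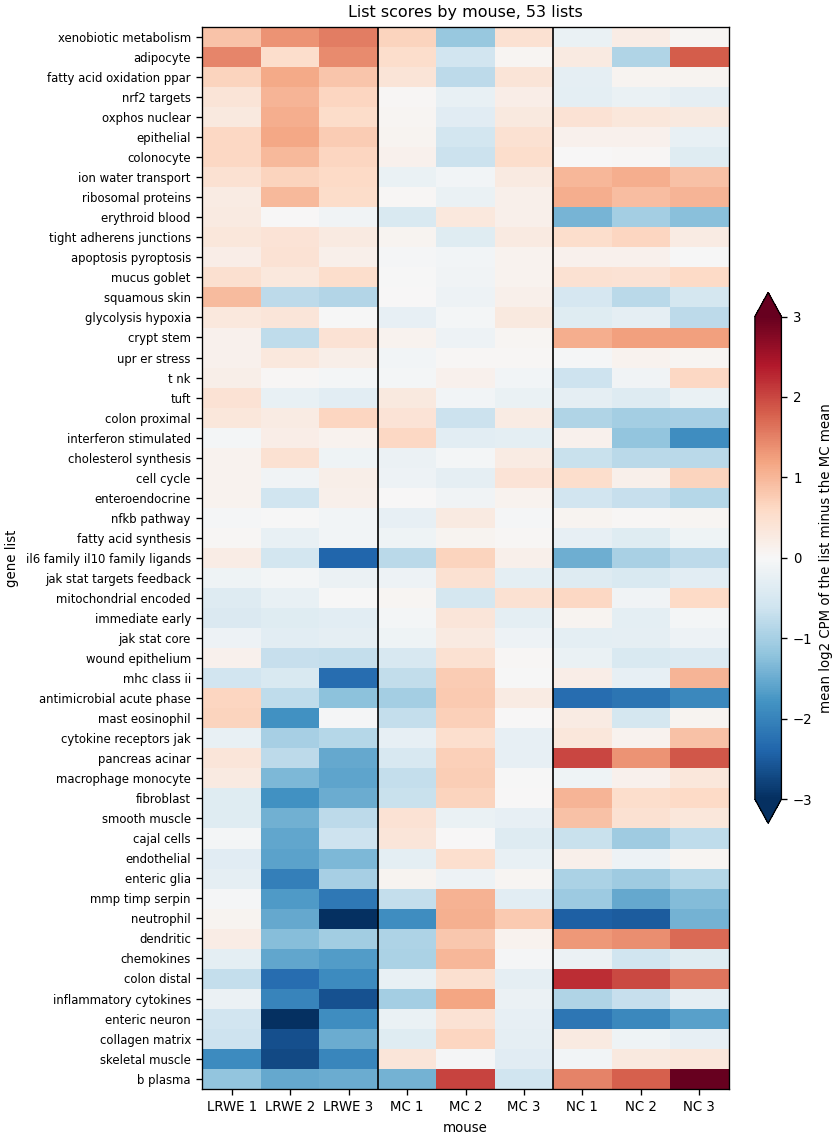
Scores of the 53 lists in each mouse (mean log2 CPM of the list less the MC mean, red higher and blue lower), sorted by the median fold change of LRWE over MC. LRWE 2 and LRWE 3 differ more from MC than LRWE 1 in the collagen, neuron and cytokine lists, and MC 2 differs from MC 1 and MC 3 in the B and plasma cell and xenobiotic lists.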

How the data were processed

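Poly(A) RNA libraries of mouse colon were deposited as 1 table of 36256 genes. Per the file headers, it held counts and FPKM for each of 9 libraries. The counts were whole numbers and were treated here as estimated counts deposited by the authors, and the deposited FPKM were fragments scaled by transcript length and library size. Tools given without settings in the submitters' processing notes are HISAT2 2.0.4, cutadapt 1.9, edgeR and StringTie 1.3.4d. They name the build hg38, which cannot be that of mouse identifiers, and 602 of 34151 genes had their GENCODE M21 coordinates, so deposited positions are given with the build not named.

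Counts were filtered with filterByExpr (21767 genes kept), scaled by TMM and fitted with edgeR 4.0.16 (quasi-likelihood, 1 mean per group over 9 libraries, 6 residual degrees of freedom) in R 4.3.3. Genes were called at a Benjamini-Hochberg adjusted p under 0.05. The SE is the absolute log2 fold change over the square root of F. CPM use TMM, and log2 CPM a prior count of 2. DESeq2 1.42.0 and limma 3.58.1 (voom with quality weights, and limma-trend on FPKM with pseudocounts of 1 and 0.1) were alternatives, among 23 in all. The fit was run on counts simulated with known fold changes and the same spread in every library. The spread of these libraries was unequal, so that check does not bear on the absence of edgeR calls here. Floors of 3 counts cover counting error only, since reads lacking molecular identifiers cannot be taken as separate molecules.

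The comparison and the 53 gene lists (1035 symbols, 978 of them tested) were chosen with earlier results of these data known. Named were 12 genes per direction (groups not overlapping, mean CPM of at least 1, called genes first and then the smallest p), the 2 most abundant and the 2 smallest-p members of described lists, and a panel of JAK/STAT, inflammation and barrier genes. Predicted loci, pseudogenes and immunoglobulin segments were left out of the naming. Some genes that the rule names are not reported here, though list counts and medians include them. Replicate numbers were not used to pair the mice in the main fit, and groups of 3 were not tested for outliers.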

Additional observations from a re-analysis of the deposited data

How the results depend on the processing

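The comparison was refitted under 23 alternatives, of which 1 (leaving out LRWE 2 and MC 2 together) was chosen after seeing the data. The count of called genes was 0 in each direction in all but 4 of them. DESeq2 called 886 higher and 902 lower, and limma-voom with quality weights 1152 higher and 1749 lower. Leaving out 1 library gave 0 to 950 genes higher and 0 to 1486 lower, the highest without LRWE 1, and without MC 3 there was 1 call. Without 1 LRWE or MC library, which also compares fewer mice, genes without overlap numbered 3645 to 5435 above and 3628 to 5532 below. Without 1 NC library they numbered 2851 to 3137 above and 3116 to 3323 below. The number of lists with a median above 0 was 25, and 17 to 28 over the alternatives. The median of the collagen list ran from -2.17 to -0.69, of enteric neurons from -2.44 to -0.83, of epithelial markers from 0.38 to 0.92 and of ribosomal proteins from 0.32 to 0.79. Scaling by library totals alone moved the median of all genes by -0.20 on the log2 scale, and the share of genes with an unadjusted p under 0.05 that were higher was then 34.9%, against 54.2% as reported. On FPKM that share was 36.3% to 38.5%. The labels give no pairing of mice by replicate number. Same-numbered LRWE and MC mice correlated at -0.16, -0.15 and -0.04 in their deviations from group means, and differently numbered mice at -0.11 to 0.24. So few values from groups of 3 cannot show whether mice were paired. The edgeR fit with a replicate block called 0 genes, as did the fit without it. With the block the smallest adjusted p was 0.283, with 1940 genes higher and 1880 lower at an unadjusted p under 0.05.

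Over the 172 genes followed, 266 of 3930 alternative values became calls, and 34 had the other sign, in 15 genes; the cause was not tested. Stat6 had a log2 fold change of -0.047 with library totals and -0.017 in each of the 3 FPKM fits. Voom gave Cxcl1 0.058, Tjp1 0.083 and Junb 0.12. Without LRWE 2 and MC 2 together the fold change was 0.067 for Jak3, 0.11 for Socs3, 1.91 for Cxcl1, 1.01 for Ptgs2, 0.043 for S100a8, 0.059 for Lcn2, 0.038 for Tjp1, 0.20 for Junb and 0.034 for Ly6g. With 1 library left out it ran from -1.11 to 7.26 for Il10, -0.10 to 0.068 for Tjp1, -1.06 to 0.64 for Ptgs2, -0.33 to 0.16 for Ccl28, -0.61 to 0.035 for Jak3, -0.64 to 0.14 for Stat5a, -1.35 to 0.35 for Socs3, -1.60 to 3.59 for Il6, -3.50 to 1.52 for Cxcl1, -0.44 to 0.24 for Junb and -0.58 to 0.11 for Wfdc2. With 3 mice a group, the median 95% half-width was 0.933, from intervals not adjusted for the number of genes tested. Differences smaller than that could be missed in a typical gene, and larger ones also went uncalled. Fkbp5, for example, had a log2 fold change of 1.68 ± 0.31 and an edgeR adjusted p of 0.164.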

Other observations

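Genes of 3 further groups are given here, chosen after their values were seen. Among heat shock genes, the chaperone Hspa1a measured 15.3, 5.80 and 13.4 CPM in LRWE and 38.0, 35.1 and 18.1 CPM in MC (-1.40 ± 0.38), and Hsp90aa1 measured 181, 109.9 and 136 CPM in LRWE and 223, 305 and 212 CPM in MC (-0.79 ± 0.21). Both groups were without overlap, and so were those of the small heat shock genes Hspb8 (-1.38 ± 0.41) and Cryab (-1.03 ± 0.31) and the co-chaperone Bag3 (-0.65 ± 0.19). Hspa1b overlapped (-1.22 ± 0.51), and reads of Hspa1a and Hspa1b may be shared. The mitochondrial chaperone Hspd1 lay the other way (0.61 ± 0.17). Several of the small heat shock genes are abundant in muscle, whose markers were lower too, and the part of muscle was not tested.

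Metallothioneins, which bind zinc as Slc30a1 exports it, measured 308, 1490 and 950.4 CPM in LRWE and 266, 315 and 454 CPM in MC for Mt1 (1.41 ± 0.50). For Mt2 the values were 109.8, 564 and 399 CPM in LRWE and 77.1, 183 and 159.7 CPM in MC (1.35 ± 0.59). LRWE 2 and LRWE 3 exceeded each MC mouse for both genes and LRWE 1 did not. Sgk1, a kinase of sodium transport that corticosteroids are known to induce, measured 189.8, 299.5 and 346 CPM in LRWE and 152, 77.5 and 122 CPM in MC (1.25 ± 0.37). The corticosteroid receptor genes Nr3c1 (0.83 ± 0.25) and Nr3c2 (0.93 ± 0.27) lay higher without overlap, and the glucocorticoid-induced gene Tsc22d3 overlapped (0.47 ± 0.21). No gene of these groups was called by edgeR, and their smallest adjusted p was 0.164.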
